A study of Rattus norvegicus with 24 samples.

Results

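The genes described here supply peptides to MHC class I molecules. They are 10 genes chosen by name for their known roles: B2m, Tap1, Tap2, Tapbp, Psmb8, Psmb9, Psmb10, Psme1, Psme2 and Nlrc5. Earlier results of these data were known when they were chosen, so comparisons of the set with all loci are descriptions. Each name was found on exactly 1 locus, so the genes make up 10 of the 26641 named loci and of the 42334 loci in all. They were measured by messenger RNA sequencing in 24 libraries from adult male Sprague-Dawley rats killed 3 months after surgery. A total of 6 TBI animals had received a lateral fluid-percussion injury, in which a fluid pulse strikes the exposed dura over the left parietal cortex, and 6 sham-operated controls had the same anesthesia and surgery, craniectomy included, without the impact. The perilesional cortex and the ipsilateral thalamus were taken from every rat, so each of the 4 groups (TBI or sham, cortex or thalamus) held 6 libraries, 1 per rat, and the regions share their animals. The TBI animals were picked from a larger injured cohort for a perilesional change on magnetic resonance imaging taken as a sign of chronic inflammation, and therefore do not stand for all injured rats. No gene was altered and no agent given to separate the groups.

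MHC class I molecules display short peptides from proteins made inside the cell, and CD8+ T cells read them. The peptides are cut by the proteasome, a barrel-shaped protease whose catalytic subunits can be replaced by the immunosubunits encoded by Psmb8, Psmb9 and Psmb10, and which the PA28 cap encoded by Psme1 and Psme2 can open. The TAP transporter, a dimer of TAP1 and TAP2, moves them into the endoplasmic reticulum, where tapasin (Tapbp) helps to load them onto a class I heavy chain paired with beta-2-microglobulin (B2m), while NLRC5 is a transcriptional activator that binds the promoters of many of these genes. Most of the genes respond to interferons. In the healthy brain, class I expression is low in most neurons and higher in microglia and endothelium, and it is known to rise in glia during inflammation.

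Interferon-responsive genes often carry the interferon-stimulated response element (ISRE), to which IRF factors bind, close to their start. The promoter windows of the genes were therefore searched for its core, GAAANNGAA, on both strands. A window ran from 250 bases before to 50 bases after the gene start in the RefSeq annotation of GRCr8, and 9 of the 10 genes were matched in the table, the exception being Nlrc5. The core occurred in the windows of 7 of these 9 genes, against 9.71% of all 33469 rat promoter windows. The matches are printed because they are the sequence feature that most of the genes share. Each is written 5′ to 3′ on the strand of the gene, with 8 bases on either side and the matched letters in capitals. Matches that overlap were joined.
B2m: aagaacatGAAACTGAAaatgggaa
Tap1: tggctgctTTCGGTTTCttcttcct
Tap2: agcgaagtGAAAGCGAAagcccggg
Tapbp: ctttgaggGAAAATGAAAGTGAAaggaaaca
Psmb8: ctgtggctTTCGCTTTCacttcctt
Psmb10, upstream: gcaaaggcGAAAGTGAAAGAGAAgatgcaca
Psmb10, downstream: tggggggtGAAAGCGAAagtaggaa
Psme2: tggagagtGAAAGCGAAagctgggg

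In GRCr8 the B2m window shown is chr3:129549172-129549196 on the plus strand, and its match starts 150 bases before the gene start. The other windows lie on the minus strand. They are chr20:4668647-4668671 for Tap1, chr20:4652321-4652345 for Tap2, chr20:4967881-4967911 for Tapbp, chr20:4657018-4657042 for Psmb8, chr19:50743343-50743373 and chr19:50743293-50743317 for Psmb10, and chr15:33052788-33052812 for Psme2. In Tap1 and Psmb8 the element reads on the opposite strand, as TTC and TTTC blocks. The first matched base lies 120 bases before the start in Tap1 and 41, 26 and 53 bases before it in Tap2, Tapbp and Psme2. In Psmb8 it lies 3 bases before the start, so that this match spans the start itself. Psmb10 holds matches 73 and 17 bases before its start, the first of them a run of 2 overlapping matches, as in Tapbp.

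The genes without an ISRE core in their own window were Psmb9 and Psme1. Tap1 and Psmb9 are read away from each other from starts 457 bases apart, and the Tap1 match lies between 337 and 345 bases before the Psmb9 start, outside the Psmb9 window. The other motifs were less shared. The gamma-activated sequence (GAS) TTCNNNGAA occurred in 1 of the 9 windows, that of Psmb8, against 8.87% of all windows. The CCAAT box, bound by NF-Y, occurred in 3 of the 9, those of B2m, Psmb8 and Psmb9, against 37.5%. The CRE core TGACGTCA occurred in 0 of the 9, against 1.83%. These motifs do not overlap the ISRE matches. A match of letters is a description of the sequence and does not show that a factor binds there.

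**Figure D1:**
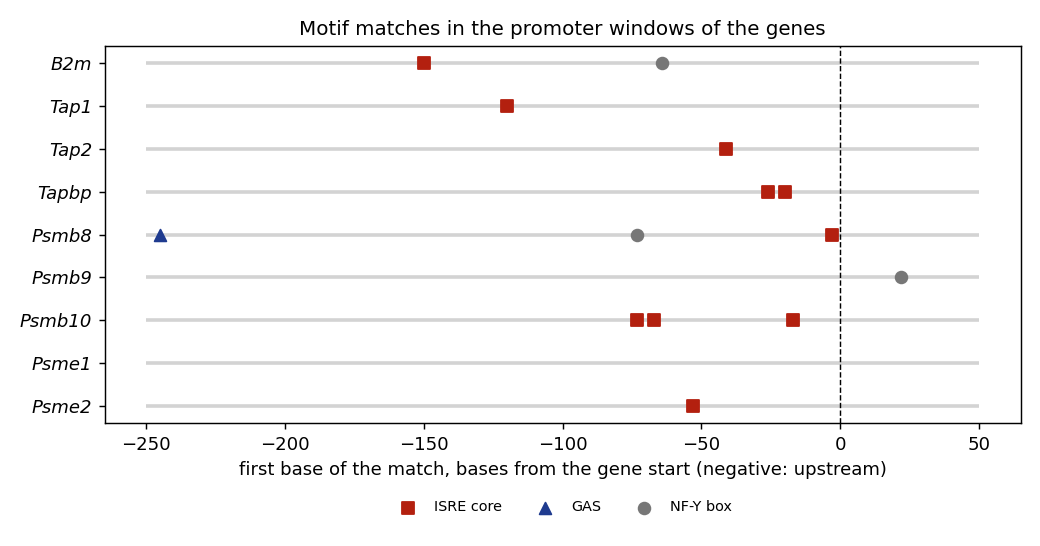
Position of each motif match in the promoter windows of the 9 genes found in the RefSeq table, in bases from the gene start (dashed line), with negative values upstream. Squares mark the ISRE core, the triangle the GAS motif and circles the CCAAT box, to which NF-Y binds. ISRE matches lie between 150 and 3 bases upstream of the start in 7 genes, while Psmb9 and Psme1 hold none.

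In the submitters' own assembly, which the labels give as Rnor_5.0, 4 of the genes stand side by side on chromosome 20. Psmb9 (XLOC_023511) runs from 6052971 to 6058393, Tap1 (XLOC_022912) from 6058557 to 6069216, Psmb8 (XLOC_022913) from 6070356 to 6073320 and Tap2 (XLOC_022914) from 6075091 to 6089133, so the 4 loci span 36162 bases. Positions are as the files list them, and whether the first base counts as 0 or 1 is not stated. Tapbp (XLOC_023585) lies farther along the same chromosome, from 7525477 to 7538367. Psme1 (XLOC_013887) and Psme2 (XLOC_014557) are neighbours on chromosome 15, at 38146026 to 38153351 and 38155646 to 38180374. Psmb10 (XLOC_019598) and Nlrc5 (XLOC_019337) are on chromosome 19, at 48772844 to 48779110 and 10896530 to 10962814, and B2m (XLOC_024960) is on chromosome 3, at 120627498 to 120633521. Several loci hold more than the gene itself. Tapbp is joined with Zbtb22 and Psmb10 with Ctrl in 1 locus each, and their fragments could not be separated. Psme1 shares its listed interval with the locus of Emc9, and Psme2 with the joined locus of Irf9 and Rnf31. An unnamed locus shares that of Tapbp. The libraries were stranded, but whether the counting used the strand is not given in the sources used here, so the values of the Tapbp, Psme1 and Psme2 loci are uncertain to that extent.

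Depth ran from about 30568903 to 54608897 fragments per library, recovered from the steps between the low values, and 3 fragments correspond to 2.06 to 3.76 normalized counts. All 10 genes lay above that floor in every library. The regions matched their labels: all 8 tested markers of thalamic identity were higher and all 7 of cortical identity lower in thalamus than in cortex, in sham and in TBI rats. Library stand-outs were found in 6 cases, in which 8 choroid plexus markers together exceeded 10000 normalized counts against at most 2570 in the other 18. These were sham cortex of rats 26 and 34, sham thalamus of rats 34 and 50, and both libraries of TBI rat 45, whose thalamus reached 259961. Counts of changed genes are therefore also given without these 6 libraries and without rat 45, both chosen after the data were seen.

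TBI and sham libraries were first compared within each region, which asks how far the injury still marks these genes after 3 months. In the perilesional cortex 8 of the 10 genes were higher in TBI animals and 0 lower (limma on log2(normalized count + 1), Benjamini-Hochberg adjusted p under 0.05), while 14.3% of the 15493 loci tested were higher by the same rule and 29.2% changed in either direction. Here 6 of the genes had no overlap between the groups, all of them higher in TBI, against 7.02% of loci higher and 5.45% lower without overlap. In the ipsilateral thalamus 7 of the 10 genes were higher and 0 lower, against 14.5% higher and 35.4% changed among 15564 loci, and 5 were higher without overlap, against 7.46%, while 10.7% of loci were lower without overlap. At an unadjusted p under 0.05, 9 of the genes were higher in cortex and 8 in thalamus, and 0 lower. No share of all loci was counted at that threshold. The median log2 fold change of the 10 genes was 0.42 in cortex and 0.67 in thalamus, with medians over all loci tested of -0.0096 and -0.023. B2m, Tap1, Psmb8, Psmb9, Psme1, Psme2 and Nlrc5 were called in both regions, Psmb10 in cortex with a log2 fold change of the same size in thalamus, and Tap2 and Tapbp in neither. Without rat 45 the counts were again 8 and 7, and without the 6 libraries 7 and 7, Psmb10 being the call lost in cortex.

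**Figure D2:**
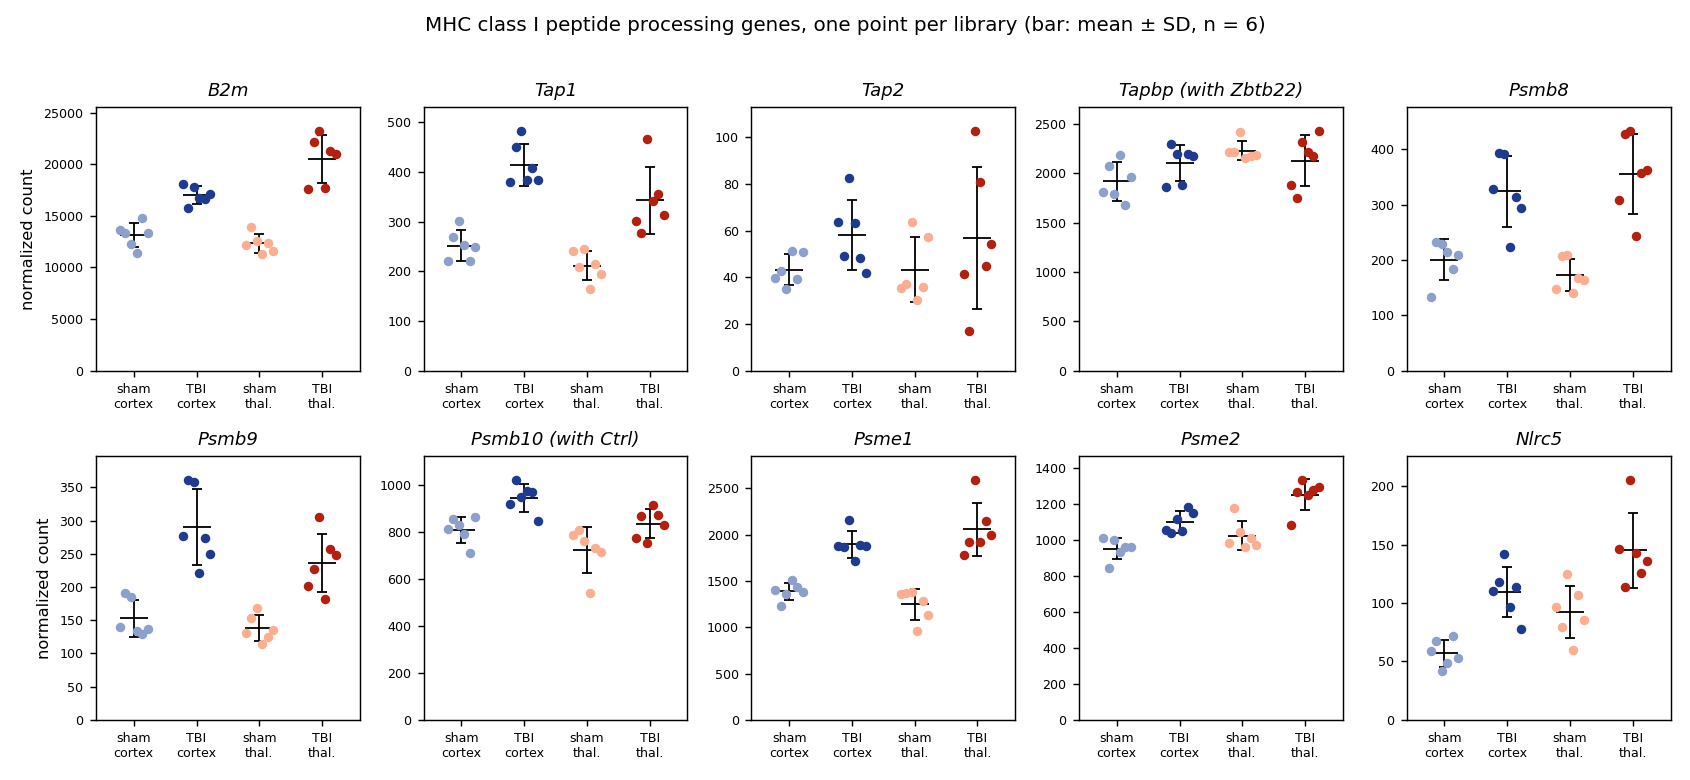
Normalized counts of the 10 genes, 1 panel per gene with its own linear axis from 0. Each point is 1 library, in the order of the rat numbers within a group, and bars give the mean and SD of the 6 libraries of sham cortex, TBI cortex, sham thalamus and TBI thalamus. B2m and Psme1 show all 12 TBI libraries above all 12 sham libraries, whereas Tapbp and Tap2 overlap in both regions.

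B2m encodes the light chain that every classical class I molecule needs to reach the cell surface. Its messenger RNA was higher after TBI in both regions, and more so in thalamus. In cortex the sham libraries ran from 11352 to 14822 normalized counts with a median of 13345, and the TBI libraries from 15778 to 18095 with a median of 16905. In thalamus the sham libraries ran from 11340 to 13965 with a median of 12304, and the TBI libraries from 17630 to 23213 with a median of 21134. The groups did not overlap in either region. The fold change was 1.30 in cortex (log2 0.38, SE 0.059, adjusted p = 0.000363) and 1.65 in thalamus (log2 0.73, SE 0.076, adjusted p = 8.10e-06) in the limma fits.

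B2m was also the only one of the 10 genes called in the test of whether the TBI effect differed between the regions. The log2 effect in thalamus exceeded that in cortex by 0.35 (SE 0.098, adjusted p = 0.0310, limma over all 24 libraries), with 7.26% of 15678 loci called in this test, 2.72% with the higher effect in thalamus and 4.54% with the lower. The call was lost when any one of 7 libraries was left out, with adjusted p between 0.0505 and 0.0625: sham cortex of rat 26 or 50, TBI cortex of rat 24, sham thalamus of rat 38 or 55, and TBI thalamus of rat 24 or 45. It was also lost without both libraries of rat 45 (0.32, adjusted p = 0.0531) and without the 6 libraries rich in choroid plexus markers (0.34, adjusted p = 0.142). Psme1 had the next smallest p, with a difference of 0.27 (adjusted p = 0.187). The difference for Psmb8 was 0.34, near that of B2m in size but less precise (SE 0.22, adjusted p = 0.395 in the same test).

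Tap1 and Tap2 together encode the peptide transporter, and only Tap1 passed the test. In cortex Tap1 ran from 220 to 301 normalized counts in sham rats with a median of 251, and from 380 to 483 in TBI rats with a median of 396. In thalamus it ran from 165 to 245 with a median of 212, and from 276 to 466 with a median of 328. TBI and sham libraries were separate in both regions, with fold changes of 1.65 in cortex (log2 0.72, SE 0.092, adjusted p = 7.49e-05) and 1.61 in thalamus (log2 0.69, SE 0.13, adjusted p = 0.000956). The effect in thalamus minus that in cortex was -0.033 on the log2 scale, with a 95% interval from -0.37 to 0.30.

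Tap2 was the least precisely measured of the genes. In cortex it ran from 34.9 to 51.1 normalized counts in sham rats with a median of 41.4, and from 41.7 to 82.4 in TBI rats with a median of 56.2. Thalamic values ran from 30.1 to 63.9 with a median of 36.4, and from 17.1 to 103 with a median of 49.6. The groups overlapped in both regions, and the TBI thalamus held both the lowest and the highest value of all 24 libraries, in rats 24 and 45. The log2 fold change was 0.40 in cortex (SE 0.17, adjusted p = 0.0924) and 0.24 in thalamus (adjusted p = 0.627), where the 95% interval from -0.51 to 1.00 includes the size seen for Tap1. In cortex Tap2 passed the threshold once TBI rat 63 was left out (0.48, adjusted p = 0.0377).

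Tapbp, the tapasin gene, did not pass the test in either region. Its locus, which includes Zbtb22, ran from 1680 to 2191 normalized counts in sham cortex with a median of 1887, and from 1859 to 2299 in TBI cortex with a median of 2185. In thalamus it ran from 2158 to 2421 with a median of 2200 in sham rats, and from 1752 to 2429 with a median of 2196 in TBI rats. The groups overlapped in both regions. The log2 fold change was 0.13 in cortex (SE 0.073, adjusted p = 0.186) and -0.074 in thalamus (SE 0.074, adjusted p = 0.465), with a 95% interval in thalamus from -0.23 to 0.083.

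The immunosubunits Psmb8, Psmb9 and Psmb10 take the catalytic places of Psmb5, Psmb6 and Psmb7 in the proteasome core. Psmb8 and Psmb9 were higher after TBI in both regions. Psmb10 had log2 fold changes of 0.22 in both and passed the threshold in cortex. Psmb8 ran from 133 to 232 normalized counts in sham cortex with a median of 212, and from 224 to 393 in TBI cortex with a median of 321. In thalamic libraries it ran from 140 to 209 with a median of 166 in sham rats, and from 244 to 433 with a median of 360 in TBI rats. In cortex 5 of 6 TBI libraries lay above all sham libraries, TBI rat 52 being the exception, and in thalamus the groups did not overlap. The fold change was 1.61 in cortex (log2 0.69, SE 0.15, adjusted p = 0.00376) and 2.04 in thalamus (log2 1.03, SE 0.15, adjusted p = 0.000123), the largest fold of the 10 genes in thalamus.

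Psmb9 stands head to head with Tap1 on chromosome 20. In cortex it ran from 128 to 191 normalized counts in sham rats with a median of 139, and from 221 to 361 in TBI rats with a median of 275. Thalamic libraries ran from 114 to 168 with a median of 133, and from 181 to 305 with a median of 238. The groups were separate in both regions, with fold changes of 1.89 in cortex (log2 0.92, SE 0.14, adjusted p = 0.000284) and 1.70 in thalamus (log2 0.77, SE 0.13, adjusted p = 0.000491).

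Psmb10, whose locus includes the chymotrypsin-like gene Ctrl, differed by less. It ran from 709 to 862 normalized counts in sham cortex with a median of 820, and from 845 to 1020 in TBI cortex with a median of 959. In thalamus it ran from 538 to 807 with a median of 745 in sham rats, and from 751 to 914 with a median of 848 in TBI rats. The ranges overlapped in both regions, with 5 of 6 TBI libraries above all sham libraries in cortex and 4 of 6 in thalamus. The log2 fold change was 0.22 in cortex (SE 0.062, adjusted p = 0.0140) and 0.22 in thalamus (SE 0.092, adjusted p = 0.0803). Without the 6 libraries rich in choroid plexus markers it was 0.23 in cortex with an adjusted p of 0.0762. In thalamus the adjusted p was 0.0321 when all 24 libraries entered one fit and 0.0312 with the rat as a random block. The effect in thalamus minus that in cortex was -0.0073 (95% interval -0.24 to 0.22), so a difference between the regions was not shown.

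None of the constitutive counterparts was called higher. The locus of Psmb5 (joined with an unnamed Ensembl gene) had a log2 fold change of 0.014 in cortex (adjusted p = 0.895) and -0.17 in thalamus (adjusted p = 0.0741). Psmb6 had -0.036 (adjusted p = 0.735) and -0.11 (adjusted p = 0.259). Psmb7 was lower in TBI cortex by -0.17 (adjusted p = 0.0313) and had -0.12 in thalamus (adjusted p = 0.196).

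The log2 ratio of each immunosubunit to its counterpart was taken within each library, as a description without a test. In cortex Psmb8 over Psmb5 was on average -4.20 ± 0.34 in sham rats and -3.52 ± 0.29 in TBI rats (SD, n = 6), and in thalamus -4.52 ± 0.18 and -3.32 ± 0.42. The groups overlapped in cortex and were separate in thalamus, where the TBI mean was higher by 1.20. Psmb9 over Psmb6 was higher by 0.95 in TBI cortex with no overlap and by 0.88 in TBI thalamus, where 5 of 6 TBI libraries lay above all sham libraries. Psmb10 over Psmb7 was higher by 0.39 and 0.34, with 5 and 4 of the 6 TBI libraries above all sham libraries. Levels of the members of a pair are not compared with each other, because the values are not corrected for gene length.

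The PA28 genes Psme1 and Psme2, whose products form the ring that opens the proteasome, were higher after TBI in both regions. Psme1 ran from 1227 to 1512 normalized counts in sham cortex with a median of 1395, and from 1713 to 2160 in TBI cortex with a median of 1879. In the thalamus the gene ran from 955 to 1383 with a median of 1321, and from 1785 to 2591 with a median of 1958. The groups did not overlap in either region. The fold change was 1.37 in cortex (log2 0.45, SE 0.061, adjusted p = 0.000120) and 1.65 in thalamus (log2 0.73, SE 0.10, adjusted p = 0.000114). Emc9, on the same listed interval, had a log2 fold change of -0.018 in cortex (adjusted p = 0.900) and was lower in TBI thalamus by -0.39 (adjusted p = 0.00911), the opposite direction to Psme1.

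Psme2 had the smallest effect among the 7 genes called in both regions. It ran from 843 to 1009 normalized counts in sham cortex with a median of 959, and from 1037 to 1184 in TBI cortex with a median of 1084. Thalamic values ran from 957 to 1176 with a median of 996, and from 1082 to 1331 with a median of 1272. The groups were separate in cortex, and in thalamus only TBI rat 22 fell within the sham range. The fold change was 1.16 in cortex (log2 0.21, SE 0.057, adjusted p = 0.0129) and 1.22 in thalamus (log2 0.29, SE 0.065, adjusted p = 0.00321). The locus of Irf9 and Rnf31 on the same interval was also higher, by 0.33 in cortex (adjusted p = 0.000186) and 0.30 in thalamus (adjusted p = 0.00515), and since the strand used in counting is not given, fragments of the loci may not be fully separated.

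Nlrc5, the class I transactivator, was higher after TBI in both regions at low normalized counts. In cortex it ran from 41.5 to 71.5 normalized counts in sham rats with a median of 56.3, and from 77.4 to 142 in TBI rats with a median of 112. In thalamus it ran from 60.2 to 125 with a median of 90.7, and from 114 to 205 with a median of 139. The groups were separate in cortex, and in thalamus 5 of 6 TBI libraries lay above all sham libraries. The fold change was 1.91 in cortex (log2 0.93, SE 0.16, adjusted p = 0.000755), and 1.58 in thalamus (log2 0.66, SE 0.18, adjusted p = 0.0102).

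**Figure D3:**
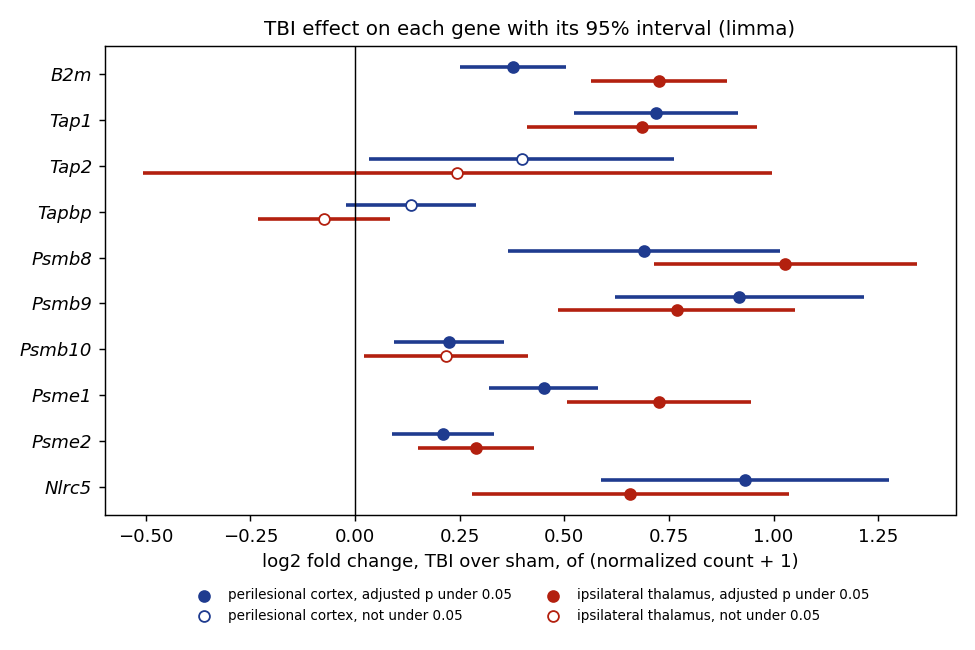
Log2 fold change of each gene between TBI and sham libraries, on the scale of log2(normalized count + 1), with its 95% interval from limma, in perilesional cortex (blue) and ipsilateral thalamus (red), 6 libraries a group. Filled points have an adjusted p under 0.05. Tap1, Psmb8, Psmb9 and Nlrc5 lie between 0.66 and 1.03 in both regions, Psmb10 and Psme2 between 0.21 and 0.29, and Tapbp between -0.074 and 0.13.

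Both TBI means lay above both sham means in 9 of the 10 genes, Tapbp being the exception. For B2m and Psme1 the order of means was TBI thalamus, TBI cortex, sham cortex, sham thalamus, and all 12 TBI libraries lay above all 12 sham libraries, while neighbours within TBI and within sham overlapped. Psmb8 had the same order of means with overlap between every pair of neighbours. For Tap1, Psmb9 and Psmb10 the order was TBI cortex, TBI thalamus, sham cortex, sham thalamus, again with overlap between all neighbours. Nlrc5 and Psme2 ran from TBI thalamus over TBI cortex and sham thalamus down to sham cortex, and neighbours overlapped. The order of Tap2 was TBI cortex, TBI thalamus, sham thalamus, sham cortex and that of Tapbp was sham thalamus, TBI thalamus, TBI cortex, sham cortex, with overlap at each step.

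The regions were also compared within each condition, which shows where the genes stood apart from the injury. In sham rats 2 of the 10 genes were higher in thalamus than in cortex and 0 lower, with 61.4% of the 15678 loci called, 33.5% as higher in thalamus and 27.9% as lower. The genes called were Nlrc5 (92.3 ± 22.7 against 57.0 ± 11.4, SD, n = 6; log2 0.67, limma adjusted p = 0.00167) and Tapbp (2228 ± 97.5 against 1918 ± 193; log2 0.22, limma adjusted p = 0.0137). Both calls were lost without the 6 libraries rich in choroid plexus markers (Nlrc5 0.40, adjusted p = 0.0504, and Tapbp 0.16, adjusted p = 0.187), while Tap1 was then called lower in thalamus (-0.30, adjusted p = 0.0294), which turned 2 higher and 0 lower into 0 higher and 1 lower. At an unadjusted p under 0.05, for which no share of all loci was counted, 4 genes differed in all, the other 2 being lower in thalamus. Of these, Tap1 (log2 -0.25, adjusted p = 0.0558) and Psmb10 (log2 -0.17, adjusted p = 0.0600) passed the threshold with each rat as a fixed block, with adjusted p of 0.0324 and 0.0416, which made 4 calls. Leaving out sham cortex of rat 50 or sham thalamus of rat 26 also gave 4.

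In TBI rats 3 of the 10 genes differed between the regions, with 60.6% of loci called, 32.7% as higher in thalamus and 27.9% as lower. B2m was higher in thalamus (log2 0.26, adjusted p = 0.00226), as was Psme2 (log2 0.19, adjusted p = 0.00877), and Tap1 was lower (log2 -0.29, adjusted p = 0.0317). The Tap1 call was lost when TBI cortex of rat 24 or 45, or TBI thalamus of rat 22, 24 or 63, was left out, with adjusted p from 0.0621 to 0.0905. With the rat as a fixed block 6 genes were called, adding Psmb9 (-0.29, adjusted p = 0.00986), Psmb10 (-0.18, adjusted p = 0.0351) and Nlrc5 (0.40, adjusted p = 0.0365). Genes with no overlap between the regions numbered 0 of 10 in either condition, against 23.7% and 19.1% of loci higher and lower in thalamus without overlap in sham rats and 19.5% and 16.6% in TBI rats.

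Variation from rat to rat within the groups was partly shared by the 10 genes. Deviations from the group means, on the log2 scale over 24 libraries, were positively correlated in 42 of 45 gene pairs, with a median Pearson r of 0.34. The lowest r was -0.16, between B2m and Tapbp, and the highest was 0.80, between Psmb8 and Psmb9. The r of each gene with the mean of the other genes ran from 0.32 for Psmb10 to 0.80 for Psme1. Over all named loci with a mean of at least 10, the 10 genes included, the median r with the mean deviation of the 10 genes was -0.00096. The quartiles were -0.26 and 0.28. Pairs among other loci were not counted. The libraries are 2 per rat and share whatever sets the libraries apart, so these values describe the set and carry no test. Without rat 45 the median over pairs was 0.26 and 38 of the 45 were positive.

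The named loci whose deviations were most like the mean of the 10 genes were C1qtnf2 (r = 0.91), ALDH2, an aldehyde dehydrogenase (r = 0.89), Tie1, an endothelial receptor (r = 0.89), C4b, a complement component (r = 0.89), and Htra3, a secreted protease (r = 0.88), over 24 libraries. This ranking depended on 1 rat: without rat 45 the leading loci were Ushbp1 (0.87), Tyrobp, an adaptor protein of microglia (0.86), Csrp2 (0.85), C1qtnf2 (0.85) and Ptrf (0.85), over 22 libraries, and only C1qtnf2 stood in both lists.

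Some libraries stood high or low for many of the genes at once. Sham thalamus of rat 38 was the lowest of its group for all 10 genes. Its microglial marker sum of 26071 was also the lowest of that group, which reached 34547. So were its endothelial sum of 12445 and its erythroid sum of 3729, while its neuronal sum of 322097 was the highest. Its T cell sum of 992, fibroblast and meninges sum of 4831 and choroid plexus sum of 1323 lay within the range of the others. So did its sums of NK and cytotoxic cells (9.34) and of B and plasma cells (4.15). Sham thalamus of rat 34 was the highest of its group for 7 genes. TBI thalamus of rat 45 was the highest of its group for 8 genes and the lowest for 1, Psmb10. Its choroid plexus sum of 259961 and fibroblast and meninges sum of 34355 were the highest of that group. The same held for its endothelial sum of 20360 and erythroid sum of 7147. It also held for the sums of NK and cytotoxic cells (24.4) and of B and plasma cells (20.3). Its neuronal sum of 177753 was the lowest. Its microglial sum of 58195 and T cell sum of 3113 were within the range of the others. In TBI cortex rats 24 and 45 were each the highest for 4 genes. The part of these marker levels in the values of the 10 genes was not tested.

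**Figure D4:**
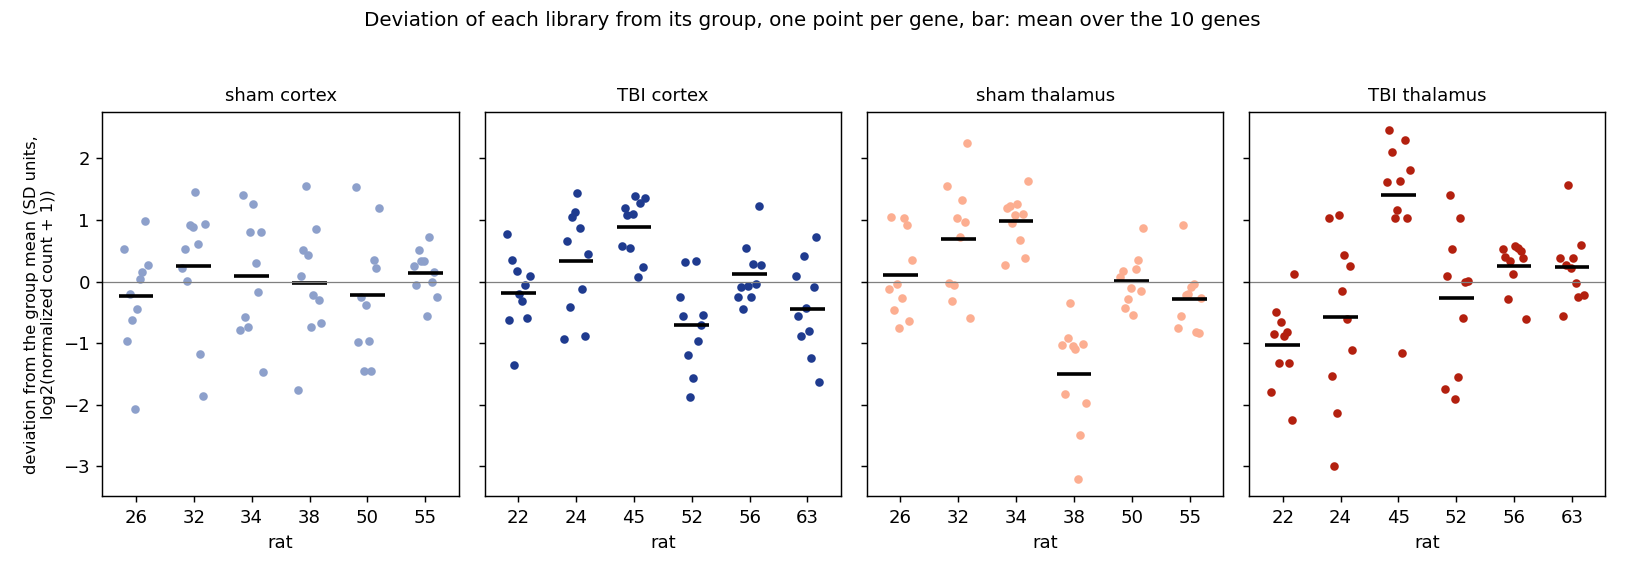
Deviation of each library from its group mean for the 10 genes, in SD units of log2(normalized count + 1), with rats on the horizontal axis and 1 panel per group. Points are genes and bars the mean over the 10 genes. Rat 38 has a mean deviation of -1.50 in sham thalamus and rat 45 one of 1.40 in TBI thalamus, while the means in sham cortex stay between -0.23 and 0.26.

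Several lists of cell type markers differed between TBI and sham libraries too, and in bulk tissue more cells of a type and more RNA per cell cannot be told apart. Microglial markers were higher in TBI for 13 of 14 genes in cortex and 14 of 14 in thalamus, with sums of 24121 to 26583 normalized counts in sham cortex, 33818 to 39339 in TBI cortex, 26071 to 34547 in sham thalamus and 53539 to 66514 in TBI thalamus. In the test of the difference between regions, 8 of the 14 had a higher TBI effect in thalamus and 0 a lower one. Among all loci tested these shares were 2.72% and 4.54%. T cell markers were higher for 2 of 7 tested in cortex and 3 of 5 in thalamus. Their summed levels were 905 to 1161, 1542 to 1904, 868 to 1251 and 2803 to 4460 in the same order of groups. These sums cover all 12 listed genes, also those too low for the test. Which genes carry the sums was not examined, so they are not a measure of T cell number. Markers of cytotoxic and NK cells summed to at most 29.7 and those of B and plasma cells to at most 24.999 normalized counts in any library, no marker of either list reached the mean of 10 needed for the test, and Gzmb, the granzyme of killer cells, lay at or under the floor of 3 fragments in every library.

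Endothelial markers were higher for 1 of 8 genes in cortex and 4 of 8 in thalamus, fibroblast and meningeal markers for 7 of 7 and 0 of 7, and astrocyte markers for 4 of 9 in each region, with 2 of 9 lower in cortex. Among all loci 14.3% were higher in cortex and 14.5% in thalamus. The endothelial share in cortex was thus below that of all loci. Neuronal markers were lower for 9 of 12 and 10 of 12, against 14.9% and 20.9% of all loci. Of the thalamic identity markers 7 of 8 were lower in TBI thalamus, while in cortex 4 of 8 were higher and 1 lower. In the test of the difference between regions 6 of these 8 had a lower TBI effect in thalamus, against 4.54% of loci. Cortical identity markers were lower for 3 of 7 in cortex and 2 of 6 in thalamus. Choroid plexus markers were higher or lower in 0 of 8 in both regions. The share of the changes in the 10 genes that moves with any of these cell types was not tested.

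The partners that the 10 genes work with were described from lists chosen for their roles, with earlier results of these data known. Class I heavy chains and related proteins were higher in TBI for 11 of 20 loci in cortex and 8 of 19 in thalamus. The shares of all loci called higher were 14.3% and 14.5%. In the list 0 were lower in both regions, and the median log2 fold changes were 0.39 and 0.38. In cortex the largest were Mr1, which presents metabolites to innate-like T cells (1.29, SE 0.17, adjusted p = 8.64e-05), RT1-A3 (1.26, SE 0.23, adjusted p = 0.00109) and RT1-CE7 (0.92, SE 0.14, adjusted p = 0.000326). In thalamus they were RT1-A3 (1.50, SE 0.26, adjusted p = 0.000466), RT1-T24-1 (1.14, SE 0.40, adjusted p = 0.0368) and the joined locus of RT1-A1 and RT1-A2, the classical class I genes (0.96, SE 0.16, adjusted p = 0.000314). The RT1 genes are near copies that share reads and differ between rat strains, so the values of single RT1 loci are uncertain. The summed level of the list was 10049 to 12172 normalized counts in sham cortex and 12434 to 15579 in TBI cortex, without overlap, and 8964 to 12040 and 11974 to 17085 in thalamus, where the ranges overlapped.

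Chaperones and trimming enzymes of the endoplasmic reticulum changed in 2 of 9 genes in each region, a share below the 29.2% and 35.4% of all loci changed in cortex and thalamus. Both times these were Tapbpl, a tapasin-related peptide editor (0.43, adjusted p = 0.000422 in cortex and 0.37, adjusted p = 0.0262 in thalamus), and Erap1, the aminopeptidase that trims peptides (0.23, adjusted p = 0.0377 and 0.36, adjusted p = 0.00423). Both were higher in TBI. The list had a median log2 fold change of -0.013 in cortex and 0.053 in thalamus.

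No gene of the constitutive core or of the 19S particle was called higher. Of the constitutive core 0 of 14 genes were higher in either region, while 2 were lower in cortex, Psma3 (-0.26, adjusted p = 0.0353) and Psmb7, and 0 in thalamus. Of the 19S regulatory particle, which unfolds ubiquitinated proteins, 8 of 20 genes were lower in cortex and 7 of 20 in thalamus and 0 higher, with medians of -0.12 in both regions, led by Psmc6 (-0.30, adjusted p = 0.0130), Psmc5 (-0.25, adjusted p = 0.00230) and Psmd12 (-0.22, adjusted p = 0.00601) in cortex and Psmd3 (-0.23, adjusted p = 0.00171), Psmc5 (-0.23, adjusted p = 0.0160) and Psmc3 (-0.19, adjusted p = 0.00544) in thalamus. Psme3, the nuclear PA28 gamma subunit and relative of Psme1 and Psme2, was lower in both regions (-0.14, adjusted p = 0.0172 and -0.15, adjusted p = 0.0172). Psme4, the PA200 activator, was higher in thalamus (0.50, adjusted p = 0.000313), and the assembly factor Psmg4 was higher in cortex (0.30, adjusted p = 0.0163). These were the changed genes among the 6 other activators, inhibitors and assembly factors tested. For comparison, 14.3% of all loci were higher and 14.9% lower in cortex, and 14.5% and 20.9% in thalamus. The 2 of 14 core genes lower in cortex lay near these shares. So did the other activators, inhibitors and assembly factors, with 1 of 6 higher and 1 of 6 lower in each region.

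**Figure D5:**
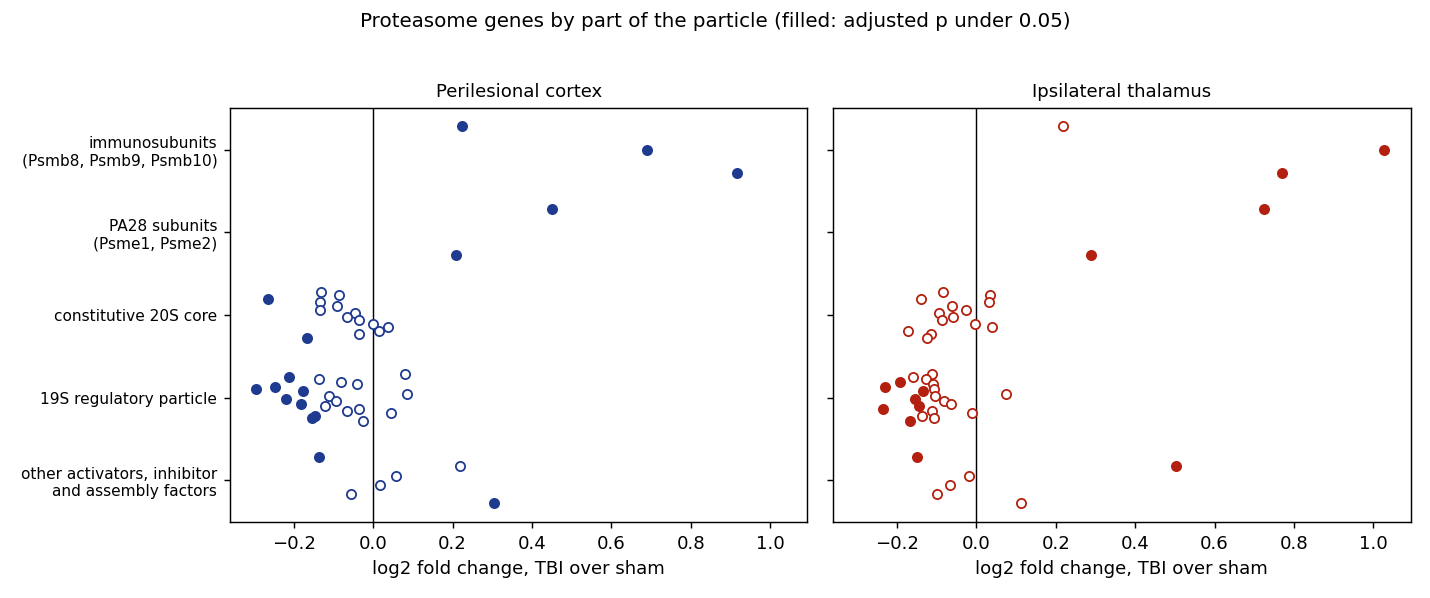
Log2 fold change between TBI and sham libraries for the genes of each part of the proteasome, 1 point per gene, in cortex (left) and thalamus (right), with adjusted p under 0.05 filled. The immunosubunits and PA28 subunits lie between 0.21 and 1.03, with Psmb10 in thalamus unfilled. Filled points of the constitutive core and the 19S particle all lie below 0, down to -0.30. Unfilled points can lie above 0, as Psmb5 does in cortex (0.014). In the last row Psme4 in thalamus (0.50) and Psmg4 in cortex (0.30) are filled above 0, and Psme3 is filled below 0 in both regions.

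Among the 6 cytosolic peptidases, which shorten or destroy peptides after the proteasome, 1 was higher and 3 lower in each region. By the same rule 14.3% of all loci were higher and 14.9% lower in cortex, and 14.5% and 20.9% in thalamus. The aminopeptidase gene Lap3, known to be induced by interferon gamma, was higher (0.46, adjusted p = 3.73e-05 in cortex and 0.66, adjusted p = 4.68e-06 in thalamus). Tpp2 was lower (-0.30, adjusted p = 0.0399 and -0.20, adjusted p = 0.0203), as was Blmh (-0.18, adjusted p = 0.0353 and -0.18, adjusted p = 0.0223).

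Regulators of class I genes were higher for 9 of 23 in cortex, with 1 lower, and for 14 of 23 in thalamus, with 0 lower. For all loci the shares were 14.3% higher and 14.9% lower in cortex, and 14.5% and 20.9% in thalamus. Irf1, a transcription factor that binds the ISRE, was 333 ± 30.6 normalized counts in sham cortex and 476 ± 61.8 in TBI cortex (SD, n = 6; log2 0.51, limma adjusted p = 0.000899). In thalamus it was 256 ± 27.0 and 444 ± 60.7 (log2 0.79, limma adjusted p = 4.11e-05), and the groups did not overlap in either region. Irf8, a factor of microglia and other myeloid cells, was higher by 0.88 (adjusted p = 0.000181) and 1.47 (adjusted p = 4.22e-07), and the cytokine signalling inhibitor Socs3 by 1.15 (adjusted p = 0.000855) and 1.92 (adjusted p = 3.45e-06).

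Rfx5, a subunit of the complex with which NLRC5 binds promoters, had log2 fold changes of 0.028 in cortex (95% interval -0.083 to 0.14, adjusted p = 0.724) and 0.037 in thalamus (95% interval -0.063 to 0.14, adjusted p = 0.575). Ciita, the class II counterpart of Nlrc5, had 0.44 in cortex (adjusted p = 0.294) and was higher in thalamus by 1.33 (adjusted p = 0.00203). Its thalamic means were 7.01 ± 1.92 normalized counts in sham and 19.7 ± 7.76 in TBI rats (SD, n = 6). The sham mean lay under the mean of 10 needed for the test, so Ciita entered it only through its TBI level. That sham mean was also not far above the floor of 3 fragments, which was 2.06 to 3.76 normalized counts over all libraries. Ifng, which encodes interferon gamma, had at most 5 fragments in any library. It was at 0 in 5 of 6 libraries of sham cortex, TBI cortex and TBI thalamus and in 4 of 6 of sham thalamus, and it was not tested. A difference in Ifng was therefore not detectable at this depth.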

How the data were processed

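The authors made stranded polyadenylated RNA libraries from each rat and region, aligned the reads with TopHat2 2.0.11 and Bowtie2 2.2.2, assembled transcripts with Cufflinks 2.2.1 and ran Cuffdiff. RGSC3.4 is named as genome and Rnor_5.0 as annotation, and the labels give Rnor_5.0. The deposited signal is a fragment count per locus divided by a size factor per library, called normalized count here. Low values (under 200 steps, tolerance 0.01) were whole multiples of 1 step in 100% of cases in every library, which gave the depth. Floors cover counting error only.

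Groups came from the labels. TBI and sham were compared within a region, and regions and the difference of effects over all 24 libraries without a block, by limma 3.58.1 in R 4.3.3 (lmFit, eBayes with mean trend) on log2(normalized count + 1), for named loci with a mean of at least 10, with Benjamini-Hochberg adjustment over all loci tested and a threshold of 0.05. This scale understates the change of low genes. Unnamed loci, 15693 with 1.90% to 2.23% of counts per library, were left out. Rats are separate animals, with 1 library per rat and region. Pairing rests on the shared rat numbers in the labels: deviations of a rat's libraries correlated with a median r of 0.19 over 12 rats (0.0039 to 0.57, 10 over 0.1) against -0.033 for different rats.

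The 10 genes and all lists were chosen with earlier results of these data known. Beside the genes themselves, the text names up to 3 genes per list and region with the largest change past the threshold, a fixed set (Psmb5, Psmb6, Psmb7, Irf1, Rfx5, Ciita, Ifng and a gene that is not reported here), the 5 loci that covary most, and neighbours on the same interval and Gzmb, chosen afterwards. Marker lists not mentioned in the results were neutrophils and monocytes (1 of 2 tested genes higher in each region), perivascular macrophages (2 of 4 higher in cortex, 0 in thalamus), oligodendrocytes (3 of 7 higher in cortex, 0 in thalamus) and erythroid cells (0 of 3 changed). Among all loci 14.3% were higher in cortex and 14.5% in thalamus, and 29.2% and 35.4% changed in either direction. Alternatives were TMM and upper quartile scaling, pseudocounts of 0.1 and 5, no filter, a mean of at least 50, limma-voom, all 24 libraries in one fit, a threshold of 0.01, the rat as block, and leaving out each library. The steps were tested on simulated data. Promoter windows came from RefSeq (GRCr8). Python 3.11.15, pandas 2.3.3 and matplotlib 3.10.9 were used.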

Additional observations from a re-analysis of the deposited data

Results flagged for a closer look

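The TBI effect on B2m was larger in thalamus than in cortex by 0.35 on the log2 scale (adjusted p = 0.0310 in limma), higher in 6 of 6 TBI libraries than in all sham libraries in each region. The call was lost without any one of 7 single libraries.

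A single library stood apart from the other 5 of its group (Dixon's test, 95% level) in 4 of the 40 groups of values checked, where chance gives about 1 in 20. Tapbp was 2421 normalized counts in sham thalamus of rat 34, with the next value at 2218. Psmb10 was 538 in sham thalamus of rat 38, against 714 or more in the others. Psme2 was 1082 in TBI thalamus of rat 22, against 1246 or more in the others. Nlrc5 was 205 in TBI thalamus of rat 45, with the next value at 146.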

How the results depend on the processing

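Of 1290 values of the 10 genes over all comparisons and alternatives, 1203 kept direction and call, 23 lost their call, 34 gained one and 30 changed sign, none of these 30 past the threshold. TBI effects kept their direction and call in cortex and thalamus except for Tap2, Psmb10, Psme2 and Nlrc5: 6 to 9 genes were called in cortex (8 to 9 with a library left out) and 6 to 8 in thalamus (7 in each case with a library left out), the lowest at a threshold of 0.01. The regional comparison in sham rats gave 2 calls, 1 at a threshold of 0.01 (Nlrc5, higher in thalamus), 1 without the 6 libraries rich in choroid plexus markers (Tap1, lower, with Nlrc5 and Tapbp lost), 4 with TMM scaling and with the replicate block, and 2 to 4 with a library left out. In TBI rats it gave 3, 5 with limma-voom, 6 with the block, and 2 to 4 with a library left out. The TBI count in thalamus was 8 with all 24 libraries in one fit, and 8 in that fit with the rat as a block, so the block itself changed no TBI call. The call for a difference of effects went from 1 to 0 at a threshold of 0.01, without rat 45 and without the 6 libraries, and was 0 to 1 with a library left out.

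Signs changed for uncalled values only. With a library left out, the regional log2 difference of Tap2 ranged from -0.16 to 0.054 in sham rats and from -0.40 to 0.11 in TBI rats, that of Tapbp in TBI rats from -0.026 to 0.068, and the difference of effects from -0.36 to 0.14 for Tap2, from -0.13 to 0.024 for Tap1 and from -0.090 to 0.030 for Psmb10. Tapbp in TBI rats was -0.0071 with TMM, and Psmb10 was 0.019 with upper quartile scaling, 0.024 without rat 45 and 0.041 without the 6 libraries. The causes were not tested. Counts were too low to test Ifng.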
